A study of Mus musculus with 2 samples.

Results

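The genes described here encode the enzymes and core partners that write and remove DNA methylation and that place the Polycomb mark on histone H3. They are Dnmt1, Dnmt3a, Dnmt3b, Uhrf1, Tet1, Tet2, Tet3, Ezh1, Ezh2 and Suz12. They were chosen by name, as 10 of the 27663 named genes on a mouse whole-genome Agilent array, and every noncontrol probe whose gene name in the array files was 1 of these was used, 22 in all. The samples were 2 preparations of RNA from CD4 T cells sorted from spleen cell cultures of female OVA-TCR-Tg mice, whose transgenic T cell receptor recognises ovalbumin (OVA). In the co-culture, spleen cells that had earlier been stimulated with the bacterial superantigen TSST-1 (0.1 μg/mL), called anergic in the labels, were mixed in equal number with further OVA-TCR-Tg spleen cells and given OVA (0.1 mg/mL). In the naive-only culture, OVA-TCR-Tg spleen cells were given the same OVA dose with no pre-stimulated cells added. The labels give 1250000 cells per mL for the spleen cells added to the co-culture and 2500000 per mL for the naive-only culture, so the density of cells without pre-stimulation differed too. Both were sorted for CD4 after 24 h, and the labels do not say that the sort parted pre-stimulated from naive cells, nor how many mice were pooled, so the co-culture RNA may hold both kinds of cell. With 1 array in each group there is no replicate to check a difference against, so no test between the groups was possible and no p-value is given.

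DNA methylation sits on cytosines next to guanines and usually silences promoters and enhancers. Dnmt3a and Dnmt3b place it anew, Dnmt1 copies it onto the new strand when DNA is replicated, and Uhrf1 guides Dnmt1 to hemimethylated DNA. The TET enzymes oxidise methylcytosine, which leads to its loss. Ezh2 or Ezh1, together with Suz12 and Eed, forms Polycomb repressive complex PRC2, which methylates histone H3 at silent genes. In CD4 T cells both systems are known to guard the choice between helper fates and the silencing of cytokine genes, and Dnmt1, Uhrf1 and Ezh2 are known to be made in dividing cells.

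Promoter windows of 3 members are shown because they carry letters of the site that E2F factors, which switch on genes for DNA replication, are known to bind. The windows run from 250 bases before to 50 bases after the annotated start (RefSeq, GRCm38.p6, gene strand, 5′ to 3′), and all 10 members had at least 1 window. The letters searched were TTTGGCGC and TTTCGCGC on both strands, with overlapping matches counted, and matches are in capitals. Any window of the gene counted. Matches stood in 3 of the 10 members, against 0.929% of the 27025 genes with a window, 8 of 25 genes on an S phase list and 1 of 20 on a mitosis list. None stood in the partner lists described below, with 12, 6, 8, 18 and 5 genes that had a window. The windows were Dnmt1 at chr9:20952574-20952873 (minus strand), Uhrf1 at chr17:56304063-56304362 (plus strand) and Ezh2 at chr6:47594981-47595280 (minus strand). Other forms of the site were not searched, so a window without a match may still hold one. A match describes letters and shows no binding.
Dnmt1: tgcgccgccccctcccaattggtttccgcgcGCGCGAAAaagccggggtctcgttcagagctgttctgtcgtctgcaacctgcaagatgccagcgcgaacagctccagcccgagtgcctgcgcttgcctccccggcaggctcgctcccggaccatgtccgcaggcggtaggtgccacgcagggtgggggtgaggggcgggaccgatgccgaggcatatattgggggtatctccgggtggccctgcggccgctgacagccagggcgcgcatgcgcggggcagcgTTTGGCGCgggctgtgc
Uhrf1: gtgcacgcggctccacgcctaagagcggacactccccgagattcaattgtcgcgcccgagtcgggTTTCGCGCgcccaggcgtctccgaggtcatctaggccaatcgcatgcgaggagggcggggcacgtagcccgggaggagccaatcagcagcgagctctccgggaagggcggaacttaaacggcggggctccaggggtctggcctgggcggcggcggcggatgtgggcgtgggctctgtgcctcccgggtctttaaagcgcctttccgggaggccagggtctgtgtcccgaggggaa
Ezh2: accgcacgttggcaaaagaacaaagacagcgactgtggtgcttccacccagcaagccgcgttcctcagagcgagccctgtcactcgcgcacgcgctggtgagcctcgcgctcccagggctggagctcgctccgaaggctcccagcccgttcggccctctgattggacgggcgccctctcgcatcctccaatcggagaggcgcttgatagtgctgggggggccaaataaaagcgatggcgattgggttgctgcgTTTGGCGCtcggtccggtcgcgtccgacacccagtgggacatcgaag
Counted from the annotated start, the match began at base 34 in Dnmt1, at base 4 in Ezh2 and at base -185 in Uhrf1. Dnmt1 had another, on the opposite strand, at base -219. The differences of these 3 genes between the arrays are given below, and the part of such sites in them was not tested.

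The array values are spot intensities. The 75th percentile of the noncontrol probes was 301.2 intensity units on the co-culture array and 299.1 on the naive-only array, and levels are log2 values relative to it. The software called 45.1% of 55681 probes well above background on the co-culture array and 46.2% on the naive-only array, and no spot was saturated. T cell markers were present on both arrays: all 7 with a probe were well above background, with Cd4 at 5.90 in the co-culture and 5.54 in naive-only cells and Cd3e at 6.48 in the co-culture and 6.12 in naive-only cells. Of these 7, 6 were higher in the co-culture and 1, Cd28, was lower (-0.71). Their summed level relative to the 75th percentile was 1008 in the co-culture and 734 in naive-only cells. The CD8 marker Cd8a, at -2.16 in the co-culture and -2.67 in naive-only cells, was also above background on both. The other, Cd8b1, was at -1.26 in the co-culture and -0.70 in naive-only cells, so these markers differed in opposite directions. B cell markers were lower on the co-culture array, 8 of 8 measured by at least 2-fold, with a median log2 difference of -2.20. Their summed level relative to the 75th percentile was 8.74 in the co-culture and 40.1 in naive-only cells, and Pax5 and Blk were above background in naive-only cells alone. Of 5 macrophage or monocyte markers, 3 were at least 2-fold lower, with summed levels of 4.90 in the co-culture and 12.0 in naive-only cells. Of 4 NK cell markers, Tyrobp was at -0.63 in the co-culture and 0.87 in naive-only cells, Ncr1 and Klra8 were above background in naive-only cells alone, and the summed levels were 0.73 in the co-culture and 2.12 in naive-only cells. All 4 measured dendritic cell markers were lower, 1 by at least 2-fold: Flt3 (-2.87), Zbtb46 (-0.86), Itgax (-0.46) and Siglech (-0.12). Summed levels were 150.6 in the co-culture and 164.6 in naive-only cells. Nearly all of each sum was Siglech, at 7.23 in the co-culture and 7.35 in naive-only cells, measured in 1 of 3 probes. None of 3 measured neutrophil markers was 2-fold different, and Mpo was above background in the co-culture alone. The 1 measured platelet marker, Pf4, was 2.20-fold higher, and the 1 measured erythroid marker, Hba-a1, 2.12-fold lower.

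All 10 members were measured, that is, well above background on both arrays in their representative probe, the one with the highest mean level. Of their 22 probes, 18 were above background on both arrays, 2 on 1 array and 2 on neither. The de novo methyltransferase gene Dnmt3a was the single member at least 2-fold different. It was lower in the co-culture, and none was at least 2-fold higher. Among all 14374 measured genes, 5.54% were at least 2-fold lower and 7.69% at least 2-fold higher, so 1 of 10 is near the background. The median log2 difference was 0.12 over the members and -0.05 over all measured genes, and the median size without its sign was 0.32 over the members and 0.35 over all measured genes. As a list the members lay close to all measured genes, and they differed among themselves: 6 were positive and 4 negative. The difference was larger than 2 technical errors for 5 of them, Dnmt1, Dnmt3a, Dnmt3b, Tet2 and Tet3. Dnmt3b had the smallest difference of these 5, and 41.8% of all measured genes differed by at least as much. The share of all measured genes beyond 2 of their own errors was not counted. With 41.8% at that size, 5 of 10 is not read as particular to the members. The technical error, 0.20 for a bright probe, comes from the scanner software and leaves out the spread between cultures.

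**Figure D1:**
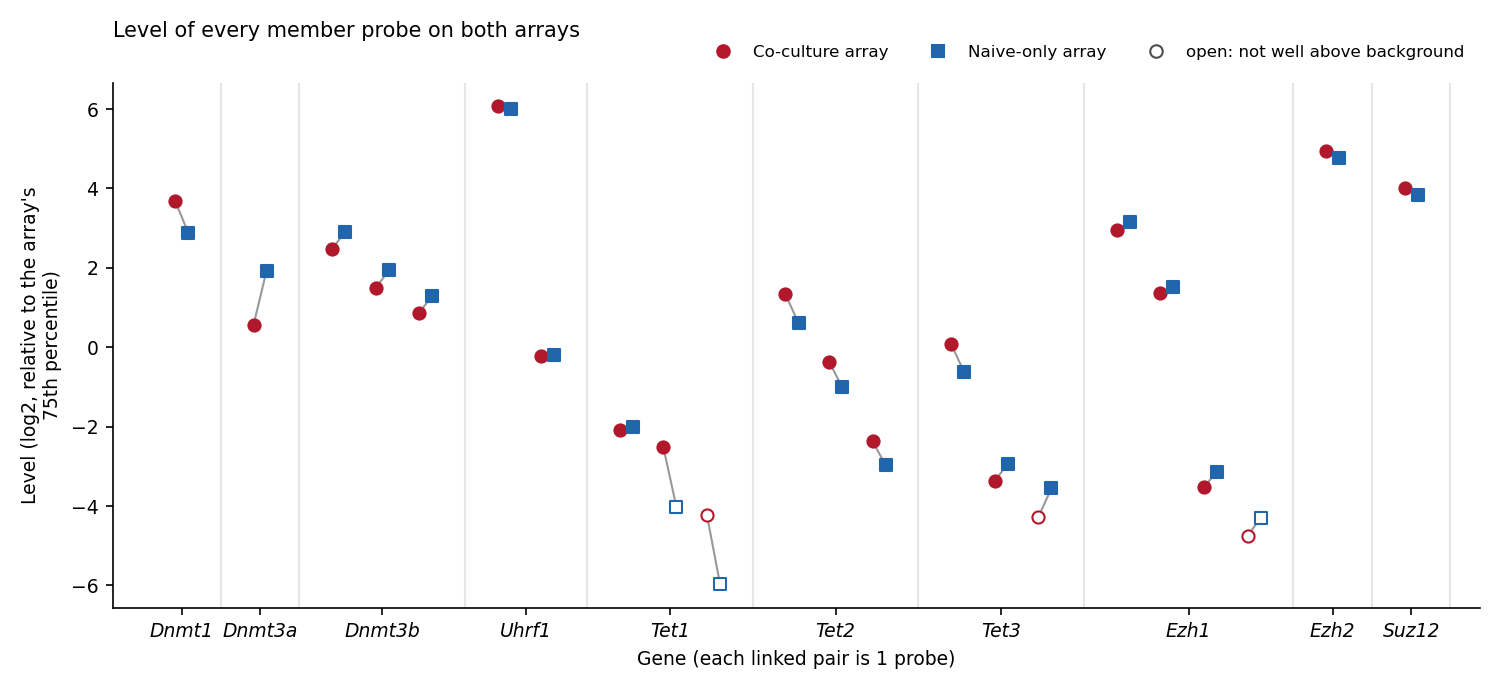
Levels (log2, with each array's 75th percentile at 0) of all 22 probes of the 10 genes; red circles are the co-culture array, blue squares the naive-only array, each linked pair is 1 probe and open symbols were not well above background. The widest gap among filled pairs is the single probe of Dnmt3a, at 0.56 in the co-culture and 1.93 in naive-only cells.

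The maintenance enzyme gene Dnmt1 and both de novo enzyme genes differed in opposite directions. Dnmt1, the maintenance enzyme, had an intensity of 3904 in co-cultured cells and 2216 in naive-only cells. The co-culture was higher, by 0.81 ± 0.20 on the log2 scale (technical error), or 1.75-fold. Of all measured genes, 18.9% differed by at least that much in either direction. Its 1 probe covers 369 bases of the genome at chr9:20711973-20712341 (mm9, minus strand) with 60 bases of sequence, so it crosses an exon junction and reads spliced mRNA.

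Dnmt3a, which sets new methylation marks and is known to limit plasticity of helper T cells, stood lower in the co-culture. Its intensity was 445 in co-cultured cells and 1141 in naive-only cells, a log2 difference of -1.37 ± 0.20, or 2.58-fold lower. A difference of that size or more was seen in 7.87% of all measured genes, and 3.24% were as low or lower. The probe lies at chr12:3914320-3914379 (mm9, plus strand) and starts at base 9611 of its transcript, so the value rests on 1 probe far along a long mRNA. B cell, macrophage and NK cell markers and the dendritic cell marker Flt3 were lower on the same array, and their part in this and the other member values was not tested. In RNA of a sorted bulk, fewer cells of a type and less RNA per cell cannot be told apart. The first 30 bases of the probe are given so that it can be placed.
Dnmt3a probe: atgttgatgtggaatcttactttcaaatgg

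Dnmt3b, the other de novo enzyme, was lower to a smaller extent and alike in 3 probes. Its representative probe, at chr2:153513403-153513462 (mm9), gave intensities of 1674 in the co-culture and 2241 in naive-only cells. The other probes gave 846 and 551 in the co-culture, against 1144 and 736 in naive-only cells. The log2 differences were -0.43, -0.45 and -0.43, an SD of 0.009 between probes, where the median SD over 3578 genes with several measured probes was 0.13. At 1.35-fold lower, Dnmt3b was inside the change of many genes: 41.8% of them differed by at least as much. The gap between Dnmt1 and Dnmt3a was 2.18 ± 0.29 on the log2 scale, and that between Dnmt1 and Dnmt3b 1.24 ± 0.29 (technical errors).

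Uhrf1, the factor that brings Dnmt1 to replicated DNA, was nearly equal on both arrays, in contrast to Dnmt1. Its bright probe at chr17:56462770-56462829 (mm9) had intensities of 20186 in the co-culture and 19235 in naive-only cells, a log2 difference of 0.06 ± 0.20. Its other probe, which crosses a junction within chr17:56451668-56452321, had 260.4 in the co-culture and 262.3 in naive-only cells (-0.02 ± 0.21). Neither value exceeded its error, and 90.3% of all measured genes differed by at least as much as the bright probe. The gap between Dnmt1 and Uhrf1 was 0.75 ± 0.29.

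**Figure D2:**
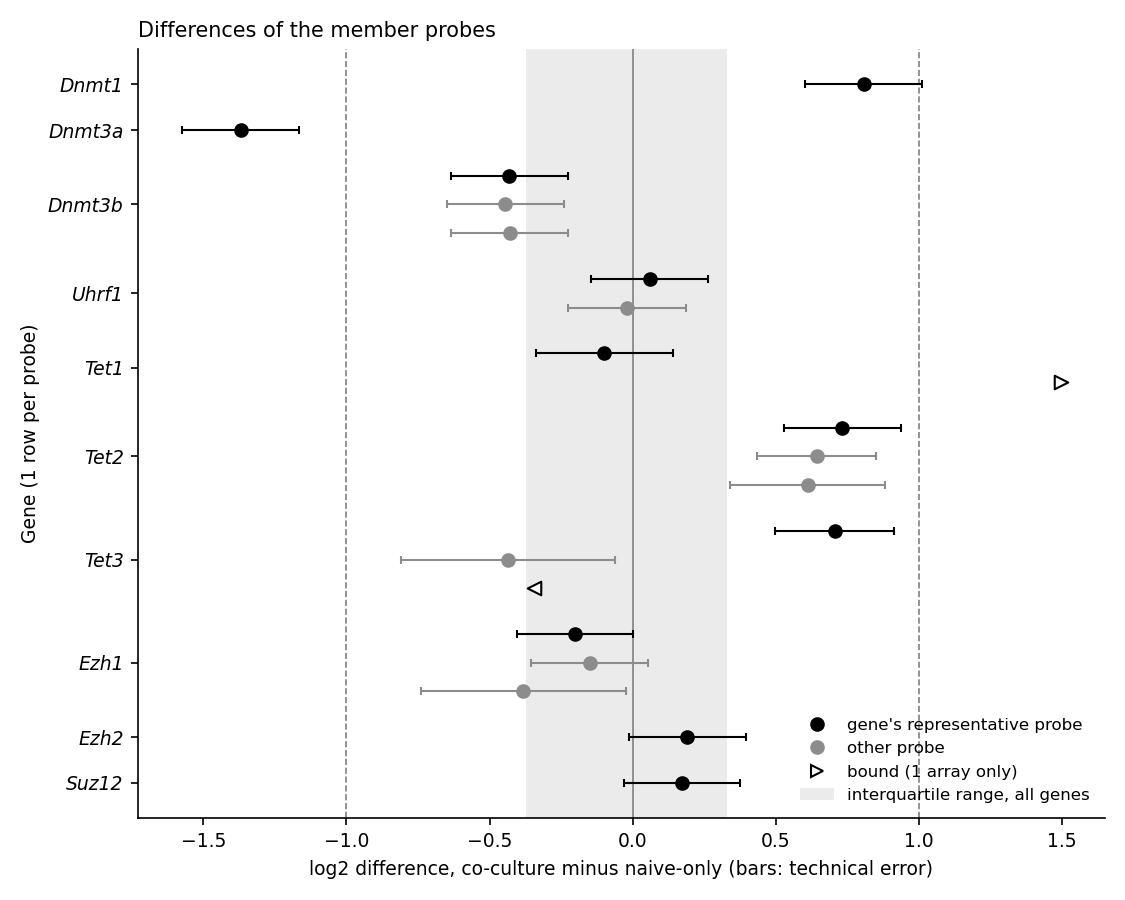
Log2 differences, co-culture minus naive-only, of the member probes with technical errors; black points are the representative probe of a gene, grey points other probes, open triangles bounds for probes above background on 1 array, the grey band the interquartile range of all measured genes (-0.37 to 0.33) and dashed lines 2-fold. Dnmt3a alone among the representative probes lies beyond a dashed line, the 3 probes of Dnmt3b and of Tet2 each lie together, and those of Tet3 lie on both sides of 0.

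Among the TET genes, Tet2 was higher in the co-culture in all 3 of its probes. Tet2, an oxidase that is often mutated in T cell lymphoma in humans, had an intensity of 761 in co-cultured cells and 455 in naive-only cells at its representative probe (chr3:133126751-133126810, mm9, minus strand). This was a log2 difference of 0.73 ± 0.20, or 1.66-fold. A probe starting 154 bases away gave 235 in the co-culture and 149 in naive-only cells (0.64 ± 0.21). The third, designed on a separate cDNA and lying 49670 bases away within the locus, gave 58.4 in the co-culture and 38.0 in naive-only cells (0.61 ± 0.27). The SD between the 3 differences was 0.063. With normexp, a background correction that models signal and noise together, the differences were further apart, at 0.63, 0.52 and 0.35 in the same order. Of all measured genes, 21.8% differed by at least as much as the representative probe did without normexp.

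Tet3 gave no single answer, because its probes disagreed. The representative probe, starting at base 3494 of the transcript, had an intensity of 318 in the co-culture and 194 in naive-only cells, 0.71 ± 0.21 or 1.63-fold higher. The probe starting at base 2202 was lower, at 29.2 in the co-culture and 39.2 in naive-only cells (-0.44 ± 0.37). The probe starting at base 4483 had 15.5 in the co-culture, not well above background, and 25.5 in naive-only cells, above it. This makes it at least 1.27-fold lower in the co-culture, a bound of -0.34 on the log2 scale, or -0.13 with normexp. The probes from bases 2202 and 4483 were both dim, close to background. With the median of the measured probes in place of the representative one, the Tet3 difference was 0.14. The 3 probes are printed in full because the direction depends on which is read. They lie at chr6:83319720-83319779, chr6:83352743-83352802 and chr6:83318731-83318790 (mm9, minus strand).
Tet3 probe from base 3494: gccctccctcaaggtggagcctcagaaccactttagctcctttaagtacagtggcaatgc
Tet3 probe from base 2202: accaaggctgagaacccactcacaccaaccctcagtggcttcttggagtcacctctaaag
Tet3 probe from base 4483: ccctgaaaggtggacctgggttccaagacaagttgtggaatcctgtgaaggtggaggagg

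Tet1, best known from embryonic stem cells, was dim in all 3 probes and also split between them. Its representative probe had 70.5 in the co-culture and 74.9 in naive-only cells (-0.10 ± 0.24), less than the error. A probe 1594 bases further along the same transcript had 52.6 in the co-culture, above background, and 18.4 in naive-only cells, not well above it. It was at least 2.82-fold higher in the co-culture, but with normexp, a background correction that models signal and noise together, the bound was 0.54 on the log2 scale. A probe designed on another transcript record, from base 3128, did not stand above background in the co-culture, at 16.1, or in naive-only cells, at 4.80. The probes lie at chr10:62276042-62276101, chr10:62274448-62274507 and chr10:62301856-62301915 (mm9, minus strand), and of the second the first 30 bases are given.
Tet1 probe from base 5298: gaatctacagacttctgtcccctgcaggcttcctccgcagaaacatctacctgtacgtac
Tet1 probe from base 6892: ctgtactcaaataacacacggcttctgttc
Tet1 probe from base 3128: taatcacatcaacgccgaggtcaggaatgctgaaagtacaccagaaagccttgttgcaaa

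Among the PRC2 members, Ezh2, Suz12 and Ezh1 were close to level between the cultures. Ezh2, the main histone methyltransferase of dividing cells, had 9299 in the co-culture and 8086 in naive-only cells (0.19 ± 0.20, chr6:47480307-47480366, mm9). Suz12, a subunit without which the complex falls apart, had 4845 in the co-culture and 4270 in naive-only cells (0.17 ± 0.20, chr11:79847251-79847310). Ezh1, the methyltransferase found also in resting cells, leaned the other way. It had 2352 in the co-culture and 2686 in naive-only cells at its representative probe (-0.20 ± 0.20, chr11:101052430-101052489), and its other measured probes gave -0.15 and -0.38. The remaining Ezh1 probe, at 11.2 in the co-culture and 15.2 in naive-only cells, was too dim to be called on either array. None of these 3 genes passed the technical error at its representative probe, and 68.3% to 72.7% of all measured genes differed by at least as much. The gap between Ezh2 and Ezh1 was 0.39 ± 0.29.

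Genes of cell division were higher on the co-culture array, and they are given here because Dnmt1, Uhrf1 and Ezh2 are made in cycling cells. All 24 measured genes of a mitosis list were at least 2-fold higher in the co-culture, with a median log2 difference of 2.60 and a range of 1.64 to 4.67. Mki67, a marker of cycling cells, had 29334 in the co-culture and 3408 in naive-only cells. The 29 measured S phase genes had a median of 0.13, with 3 at least 2-fold higher and none lower, and Pcna, the replication clamp that Dnmt1 binds, differed by 0.13 ± 0.20. Uhrf1 at 0.06, Suz12 at 0.17 and Ezh2 at 0.19 lay near the S phase median. Dnmt1 at 0.81 lay above that median but inside the S phase range of -0.44 to 2.36. All 4 lay below the lowest gene of the mitosis list. The part of the cell cycle in the member values was not tested.

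**Figure D3:**
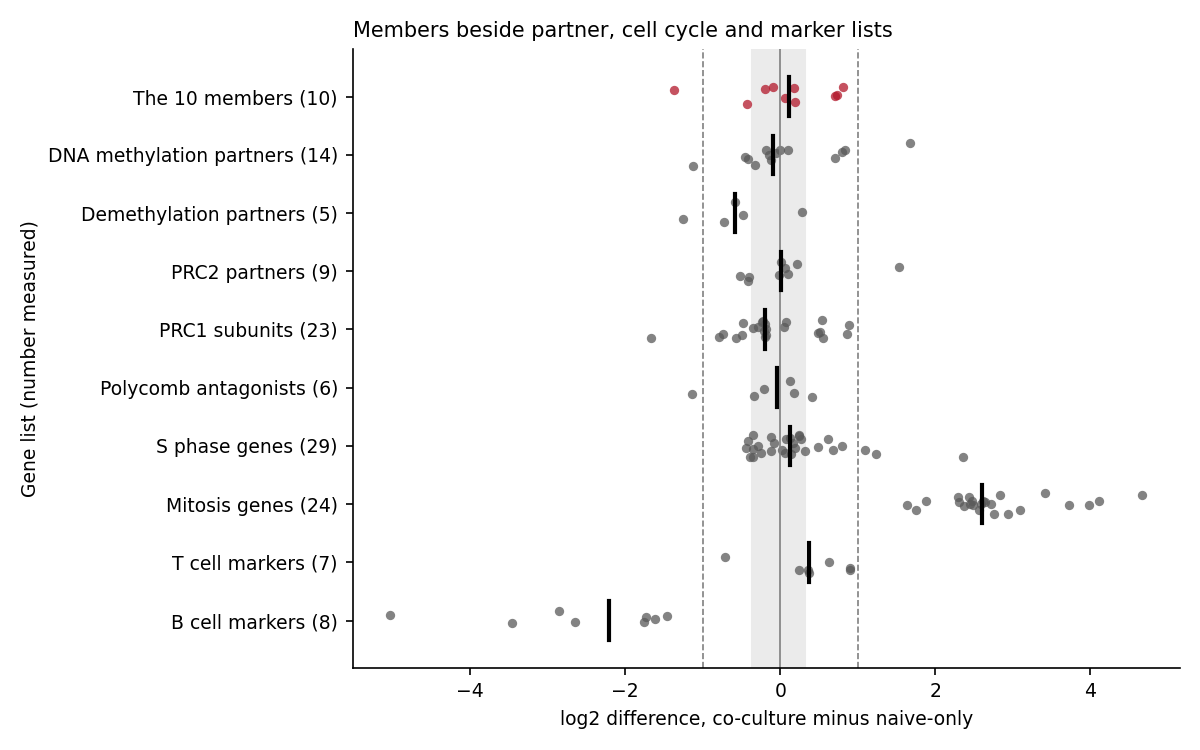
Log2 differences, co-culture minus naive-only, of the 10 genes (red) and of the measured genes of partner, cell cycle and cell type lists (dark points); black bars are medians, the grey band is the interquartile range of all measured genes and dashed lines mark 2-fold. The members and 4 of the partner lists have medians inside the grey band, from -0.20 to 0.12, and the demethylation partners (median -0.59) lie below it, while mitosis genes (median 2.60) and B cell markers (median -2.20) lie apart.

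Of 60 partner genes of the same pathways, 57 were measured, and 2 were at least 2-fold higher (3.51%, against 7.69% of all measured genes) and 4 at least 2-fold lower (7.02%, against 5.54%). Their median log2 difference was -0.18, with 22 positive and 35 negative. The median over all measured genes was also negative, at -0.05, so a majority of negative signs is not particular to these lists. The share of all measured genes with a negative difference was not counted.

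Of 14 measured partners in DNA methylation, among them genes that supply methyl groups, assist Dnmt1 or read the mark, 1 was at least 2-fold higher and 1 lower. Zbtb38, a zinc finger protein that binds methylated DNA, was 3.19-fold higher in the co-culture, at a level of 1.25 against -0.43 in naive-only cells, and its other measured probe gave 1.51 in log2 difference. Mat2a, which makes the methyl donor S-adenosylmethionine, was 2.18-fold lower, at a level of 6.08 in the co-culture and 7.20 in naive-only cells (-1.13 ± 0.20, and -1.20 in its other probe). Hells, a chromatin remodeller needed for DNA methylation, differed by -0.06 ± 0.20.

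The demethylation partners had a median of -0.59 over 5 measured genes, 4 of them negative. Cxxc5, a zinc finger protein that binds Tet2, was 2.40-fold lower in the co-culture (-1.26 ± 0.21), but -0.92 with normexp. Tdg, the glycosylase that excises oxidised methylcytosine, differed by -0.72 ± 0.20, with its other measured probes reaching to -0.27. Idh1, a source of the oxoglutarate that TET enzymes consume, was above background in the co-culture alone, at least 3.90-fold higher, or 1.70-fold with normexp.

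In PRC2, 1 of 9 measured partners was at least 2-fold higher and none lower. Phf19, which directs the complex to its targets, was 2.89-fold higher in the co-culture, at a level of 2.25 against 0.72 in naive-only cells (1.53 ± 0.20). The core subunit Eed, which holds Ezh2 active, leaned lower (-0.52 ± 0.20). The histone-binding subunits Rbbp4 (0.06) and Rbbp7 (0.01) and the accessory subunit Jarid2 (-0.02) differed by less than their errors of 0.20.

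In PRC1, the complex that ubiquitinates histone H2A, 15 of 23 measured subunits had negative differences. Their median was -0.20, inside the interquartile range of all measured genes (-0.37 to 0.33). At least 2-fold lower was 1 subunit (4.35%, against 5.54% of all measured genes). This was Rybp, a subunit of the variant complexes, at a level of 2.50 in the co-culture and 4.17 in naive-only cells, 3.17-fold lower (-1.66 ± 0.20). The ring finger subunit Bmi1 differed by -0.79 ± 0.20, and the ubiquitin ligases Rnf2 and Ring1 by -0.48 ± 0.20 and -0.18 ± 0.21. Among 6 genes of a list of Polycomb antagonists, 1 was at least 2-fold lower and none higher. Kdm6b, a demethylase that removes the PRC2 mark, was 2.19-fold lower in the co-culture (-1.13 ± 0.20), at a level of 2.07 against 3.20 in naive-only cells. Its relative Kdm6a differed by 0.18 ± 0.21. Each of Phf19, Rybp and Kdm6b rests on 1 probe.

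**Figure D4:**
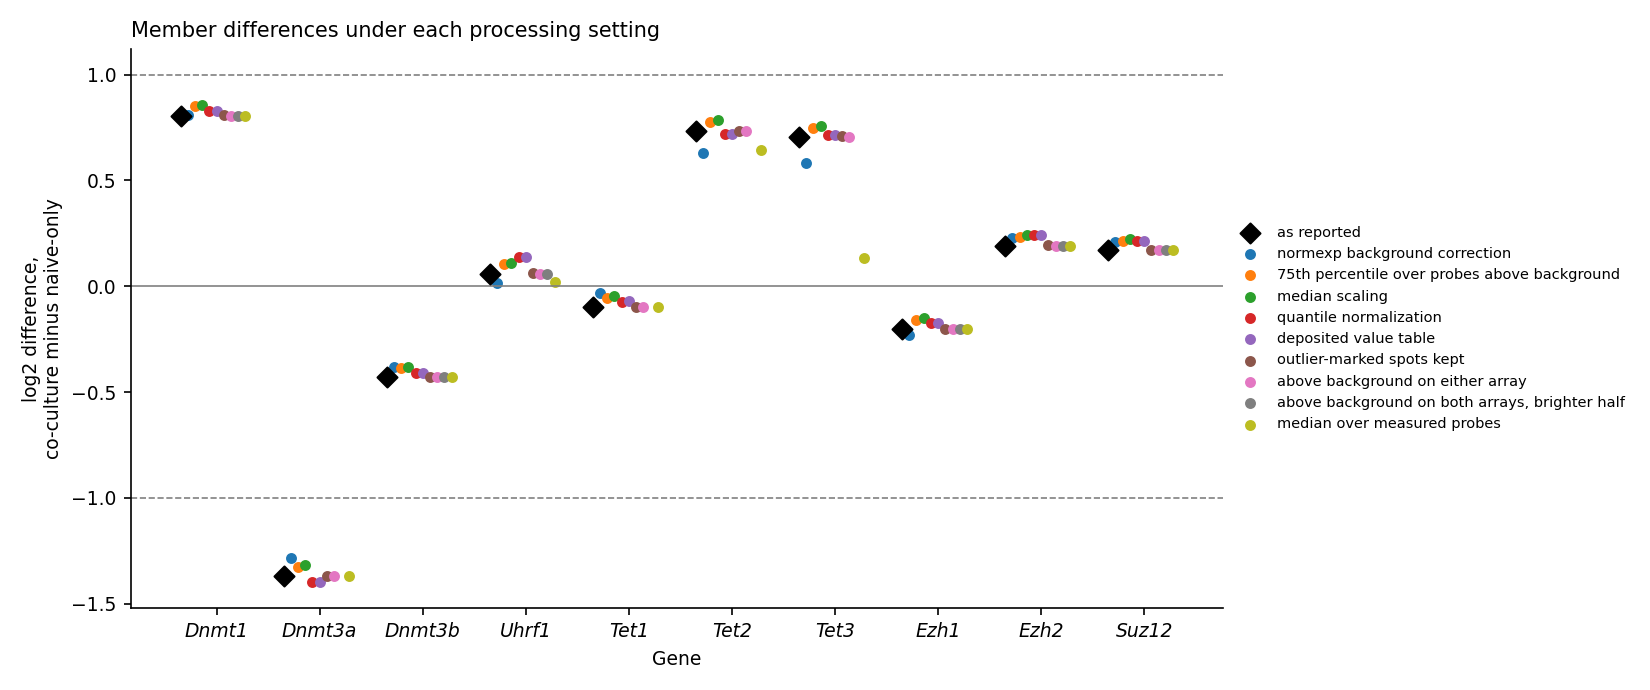
Log2 differences, co-culture minus naive-only, of the 10 genes as reported (black diamonds) and under up to 9 other settings (coloured points, named in the legend); dashed lines mark 2-fold. Within each gene the points lie close together, except for Tet3, at 0.71 as reported and 0.14 with the median over its measured probes.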

How the data were processed

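RNA of CD4 T cells from 2 cultures was hybridised to 1 single-colour Agilent array each. The RNA was first amplified (Ovation V2) and the cDNA then labelled with Cy3, per the labels' protocols, and amplification can alter relative levels. The authors' scanner files give background-subtracted intensity from Feature Extraction, version 10.7.1.1 per the file headers but 9.5.1.1 in the submitters' processing notes. The deposited value table holds linear intensity normalized between arrays by a method not given in the sources used here. Its centring was settled from the values: both columns had a median of 14.5. Their sorted values differed by at most 0.037%, the pattern that quantile normalization leaves, which gives each array the same set of values. Its log2 differences correlated at 0.999 across probes with those computed here, in the same direction.

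From the scanner intensity, log2 of the processed signal was averaged over a probe's spots, without spots that the software marked as outliers (170 on the co-culture and 188 on the naive-only array, none of a member), and the array's 75th percentile was subtracted. Each difference is the co-culture level minus the naive-only level. The probe with the highest mean level stood for its gene, which counted as measured if both arrays called that probe well above background. A probe above background on 1 array has a bound, against the higher of its own level and the lowest level above background on the other array. A difference was counted at 2-fold. Gene symbols came from the files, updated through RefSeq for 27235 of 36743 named probes. The files give probe positions on mm9.

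The genes and lists were chosen with earlier results of these data known. Named partners were 11 set by name and every one at least 2-fold different. The code was tested on simulated data. Tools were Python 3.11.15, numpy 2.4.6, pandas 2.3.3, matplotlib 3.10.9, R 4.3.3 and limma 3.58.1 (normexp, offset 50).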

Additional observations from a re-analysis of the deposited data

How the results depend on the processing

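Under 9 other settings (normexp, 4 other scalings or sources of values, spots marked as outliers kept, both other filters on dim probes, and the median over probes), no member changed the sign of its difference. Several of these settings could hardly change a member's value. The filters only change which genes count as measured, and no member spot was marked as an outlier. The median over probes leaves a gene with 1 measured probe as it was. The deposited table gave almost the values of quantile normalization (Dnmt1 at 0.83 with both). Dnmt3a ranged from -1.40 to -1.28 and Dnmt1 from 0.81 to 0.86, and only Tet3, at 0.14 with the median over its measured probes, moved by more than its technical error. With only measured genes above the median level, 6 members and 32 partners were left, Dnmt3a not among them, so 0 members were at least 2-fold lower and 0 partners at least 2-fold higher. With genes above background on either array, 4 partners were at least 2-fold higher. At 1.5-fold in place of 2-fold, 3 members were higher (Dnmt1, Tet2 and Tet3), against 15.2% of all measured genes, and 1 was lower, against 14.5%. Over all genes, 5.54% were at least 2-fold higher and 3.68% lower with normexp, 4.98% and 2.69% above the median level, and 10.97% and 9.59% with either array. No paired analysis was possible because each group has 1 array. With 1 array per group the spread between cultures is unknown, and 2-fold is a size, not a test.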

Other observations

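Some related partner genes, singled out after their values were seen, had unlike values. In PRC1, Pcgf2, the closest relative of Bmi1, was higher in the co-culture, at a level of -0.06 against -0.93 in naive-only cells (0.86 ± 0.21, and 0.77 in its other probe), where Bmi1 was lower in both of its probes (-0.79 and -0.82). Yaf2, the homologue of Rybp, differed by -0.20 ± 0.20, against -1.66 for Rybp. Phc3 was at 0.89 ± 0.20 and its relative Phc2 at -0.74 ± 0.20, each in the 1 of 3 probes that was measured.

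Among readers of methylated DNA and their relatives, the repair glycosylase gene Mbd4 was at 0.84 ± 0.21 and Uhrf2, the relative of Uhrf1, at 0.80 ± 0.20, though 0.29 in its other probe, while Mbd1, Mbd2 and Mbd3 were at -0.45 (0.06 in its other probe), -0.12 and -0.32. Dnmt3l, a cofactor of the de novo enzymes known from germ cells, was above background in the co-culture alone, near the lowest level called there. It was at least 1.71-fold higher, or 1.17-fold with normexp.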
